A study of Caenorhabditis elegans with 2 samples.

Results

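The genes described here are the histone genes of the nematode Caenorhabditis elegans, set against the peaks of CEH-36 in early embryos. They are the protein-coding genes of the WBcel235 (ce11) annotation whose symbol begins with his-, and 72 of the 19985 protein-coding genes met that rule. The data are peak lists from chromatin immunoprecipitation and sequencing (ChIP-seq) of strain OP620, which carries the allele unc-119(tm4063) on chromosome III and the transgene wgIs620, a source of CEH-36 fused at its C terminus to GFP and FLAG. Whole embryos of pooled sexes were collected 2 hours after synchronization by bleaching, chromatin was sheared by sonication, and anti-GFP antibody was used for the precipitation, while ceh-36 is what the labels enter as the antibody. There was 1 group with 2 biological replicates and no second condition, both replicates carry the same tagged transgene, and the sources used here do not give the promoter that drives it. Signal from any one cell type cannot be told apart from that of the others in whole embryos.

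Histones are the proteins around which DNA is wound. Histones H3 and H4 form the centre of the nucleosome, H2A and H2B join it as dimers, and the linker histone H1 binds the DNA that enters and leaves it. Most core histone genes are used while DNA is being copied, which early embryos do at every division, and animals carry many near-identical copies of them. In C. elegans many of these copies stand in head-to-head pairs, H2A beside H2B and H3 beside H4, which share a single upstream stretch. Genes for variants such as H3.3 are also used outside DNA replication. CEH-36 is an Otx-class homeodomain protein, a transcription factor best known from the AWC and ASE sensory neurons, and such proteins recognise the core TAATCC.

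The 72 genes comprise 17 for H2A, 16 for H2B, 15 for H3, 16 for H4, 5 for H3.3 and its relatives, 1 for H1 (his-24) and 2 with only a partial histone fold (his-39 and his-73). They form 19 loci when neighbours up to 10 kb apart are joined, and 14 loci hold more than 1 gene. Of the 72 genes, 62 stand in 31 divergent pairs, of which 16 are H2A with H2B, 14 are H3 with H4 and 1 is H4 with H2A. The stretch between the starts of a pair is 227 to 327 bp (median 292) in the H2A with H2B pairs and 234 to 321 bp (median 255) in the H3 with H4 pairs. All 15 H3 genes encode 1 protein and all 16 H4 genes encode 1 protein, from 11 and 12 distinct coding sequences. The Ensembl annotation gives these 72 genes only 50 symbols, because 14 symbols are shared by 36 genes with a repeated sequence. The genes are therefore counted by identifier and named by their RefSeq symbols, which are distinct for all 72. For 65 of the 72 the annotated gene start is the first base of the start codon.

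A gene was said to have a peak when the summit of an entry fell in its start window, which reaches 1500 bp upstream and 500 bp downstream of the gene's first base. By that rule 15 of the 72 histone genes (20.8%) had a summit of the optimal list, the 1662 entries that passed the authors' reproducibility procedure, against 820 of the 19913 other protein-coding genes (4.12%). Over all protein-coding genes the share was 4.18%. These 15 genes share 9 peaks at 7 of the 19 loci, so a peak is counted once here even where several windows hold it. In the pooled list of 30000 entries, which holds weaker candidates as well, 38 histone genes (52.8%) had a summit, against 44.6% of other genes and 44.7% of all. The longer list thus sets the histone genes much less apart than the optimal list does.

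Each replicate was also called alone, as a list of 30000 entries. Among the 1662 strongest entries of replicate 1, a summit was near 14 histone genes (19.4%), against 3.99% of all genes. Among the 1662 strongest of replicate 2 the count was 12 (16.7%), against 4.11% of all genes. The same 12 genes were in both sets, and all 12 also had an optimal peak. In the full replicate lists the counts were 38 (52.8%, against 45.9% of all genes) in replicate 1 and 40 (55.6%, against 46.1%) in replicate 2, with 34 genes in both. Depth is unknown from peak lists, so no interval is given for any of these shares. Histone genes with a peak share peaks and sequence with their neighbours and are not independent replicates.

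**Figure D1:**
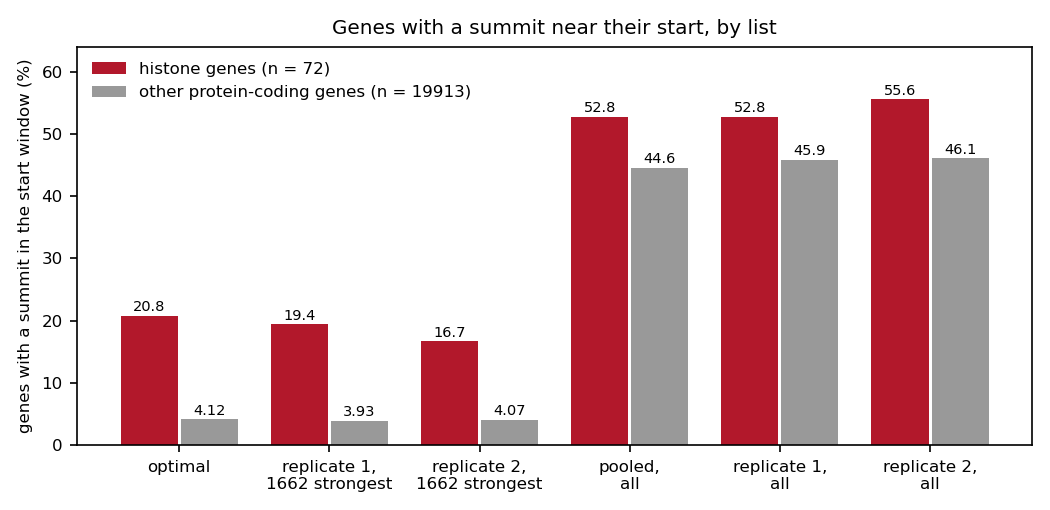
Percentage of histone genes (red, n = 72) and of other protein-coding genes (grey, n = 19913) with a summit in the start window, in 6 lists. The red bar is 20.8% and the grey bar 4.12% for the optimal list, and the bars stand closer together in the full pooled and replicate lists.

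By histone type, an optimal peak was in the start window of 5 of 16 H4 genes, 4 of 15 H3 genes, 2 of 17 H2A genes, 2 of 16 H2B genes and 2 of 5 H3.3 genes. The H1 gene and both genes with a partial fold had none. In the pooled list the counts were 9 of 16 for H4, 7 of 15 for H3, 5 of 17 for H2A, 10 of 16 for H2B and 4 of 5 for H3.3. Over all protein-coding genes the shares were 4.18% in the optimal list and 44.7% in the pooled list. H4 genes were first by share of the 4 core types in the optimal list, and H2B genes were first in the pooled list. Except at his-62 and his-4, the strongest pooled summit of these H2B genes stood 927 bp or more upstream of the start. Only 1 pooled summit lay inside an H2B gene, so the order by type depends on the reach of the window. The 2 genes of a pair often share a summit, so the types are not counted independently.

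The H3 with H4 pairs held most of the peaks. Among the 14 pairs, 4 had 5 optimal summits between them, and every one lay inside a coding sequence, 3 in an H4 gene and 2 in an H3 gene, rather than in the stretch between the starts. Signal and rank below are the authors' own values within each list. A rank counts from the strongest entry of that list, and ranks of the optimal list count among its 1662 entries.

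The strongest peak at a histone gene was at chrIV:7488342-7488483, with its summit 189 bp into his-59, an H3 gene. It had signal 195.36 and rank 379 in the optimal list, signal 89.74 and rank 370 in replicate 1, and signal 102.24 and rank 423 in replicate 2. The replicate summits were 0 and 2 bp from the optimal one. Its partner his-60, an H4 gene on the other strand, carried a second peak at chrIV:7487562-7487951 with the summit 235 bp into the gene. That peak had signal 137.79 and rank 683, with rank 523 (signal 73.31) in replicate 1 and rank 1164 (signal 59.48) in replicate 2. The pair thus has a summit in each gene, 681 bp apart, and both replicates place each of them within 8 bp.

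At his-32, an H3 gene paired with the H4 gene his-31, the peak chrIV:8334315-8334620 had its summit 238 bp into the coding sequence, signal 169.36 and rank 495. Replicate 2 placed its entry 5 bp away at rank 412 (signal 104.19). Replicate 1 split the region into 2 entries within his-32, at 118 bp (rank 514, signal 73.77) and 317 bp (rank 978, signal 52.3) from its start. The start window of the H2B gene his-34 also takes in this summit, 1429 bp upstream of it, although the summit lies in another gene. In Ensembl his-34 carries the symbol his-29, the name of an identical copy in the same locus.

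In the pair his-63 and his-64 the summit was 272 bp into the H4 gene his-64, in the peak chrIV:11407193-11407582, with signal 135.65 and rank 704. It had rank 498 (signal 75.62) in replicate 1 and rank 977 (signal 65.22) in replicate 2, 11 and 5 bp away. In the pair his-2 and his-1 the summit was 264 bp into the H4 gene his-1, in the peak chrV:16042589-16042978. This was the weakest of the 9 peaks, with signal 88.35 and rank 1611, close to the 87.2 at which the optimal list ends. In replicate 1 it had signal 39.98 and rank 1854, and in replicate 2 it had signal 49.22 and rank 1767, so it was outside the 1662 strongest of either replicate while its position moved by only 2 and 18 bp.

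Below the optimal threshold the pattern of position was the same in the pooled list. The 14 H3 with H4 pairs held 10 pooled summits at 6 pairs, 5 in H3 genes, 5 in H4 genes and 0 between the starts. Only summits within a gene or between the starts were counted. Entries past the outer gene ends, such as those past his-5 (rank 5696) and past his-45 (rank 14825), were left out. The added ones were 17 bp into his-60 (rank 5882), 199 bp into his-63 (rank 7656), 280 bp into his-2 (rank 7126), 256 bp into his-6 (rank 8639) and 251 bp into his-18 (rank 3144, signal 67.19). Replicate 1 placed 1 of 14 summits between the starts, and replicate 2 placed 1 of 13 there. The stretch between the starts makes up 26.1% of the length of these pairs. In 5 of the 6 pairs with a pooled summit it is mostly unique sequence, with 85.4 to 100% of its 36-bp words found once in the genome, and in his-17 with his-18 that share is 1.0%.

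**Figure D2:**
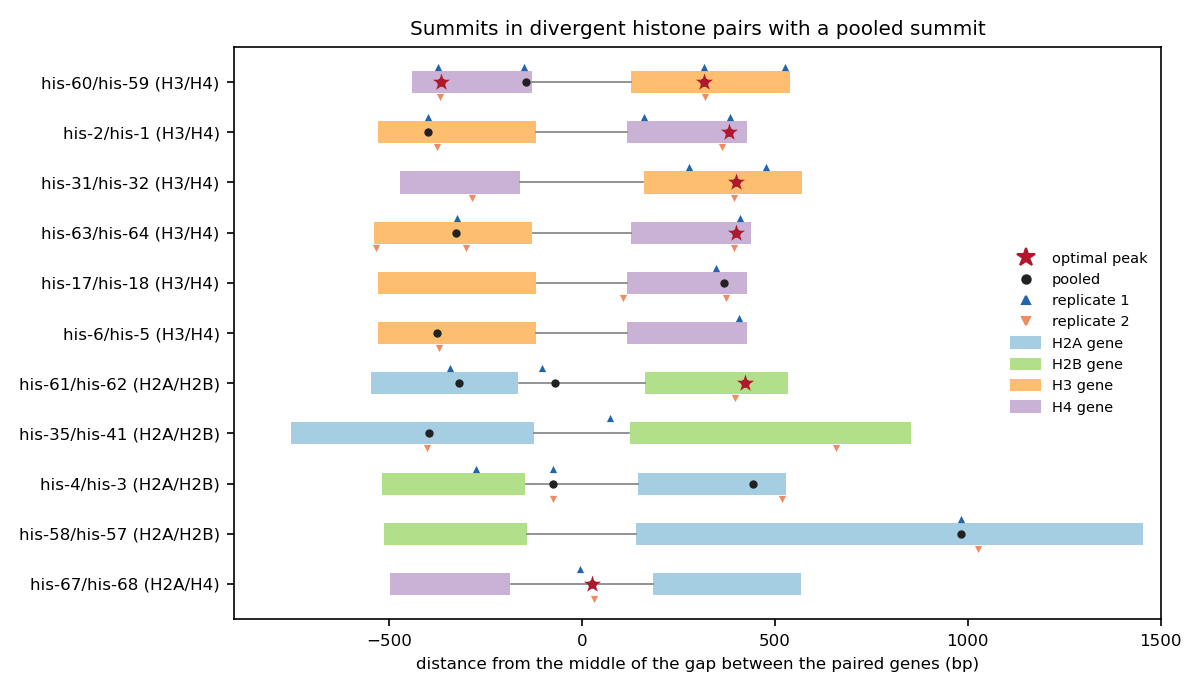
Position of summits (x axis, bp from the middle of the stretch between the paired starts) in the 11 divergent pairs with a pooled summit, with coloured boxes for the genes, red stars for optimal peaks, black points for other pooled summits, and triangles above and below for replicates 1 and 2. In the 6 pairs of H3 with H4 every star and black point lies in a gene box, and in his-67 with his-68 the star lies 26.5 bp from the middle. Summits past the outer ends of the paired genes are not drawn.

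The H4 sequences under the summits are shown because 4 pooled summits fell at nearly the same place in 4 copies of 1 protein. They run from offset 220 to offset 294 of each gene, where the first base of the start codon is offset 0, in the gene's own direction. Capitals mark the 9 positions at which the 4 differ, and the summits lie at offsets 235, 272, 264 and 251.
his-60: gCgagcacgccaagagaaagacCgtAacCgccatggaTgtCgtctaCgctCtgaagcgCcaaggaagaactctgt
his-64: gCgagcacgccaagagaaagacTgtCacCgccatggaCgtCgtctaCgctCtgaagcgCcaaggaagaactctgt
his-1: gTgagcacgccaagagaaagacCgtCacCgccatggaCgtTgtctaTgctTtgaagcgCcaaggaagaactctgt
his-18: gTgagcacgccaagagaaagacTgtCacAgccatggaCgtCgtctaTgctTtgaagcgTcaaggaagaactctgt
These are chrIV:7487698-7487772 on the minus strand, and chrIV:11407336-11407410, chrV:16042740-16042814 and chrV:8898448-8898522 on the plus strand, from the WBcel235 genome. Relative to his-60 the others differ at 3, 6 and 8 positions, and all 4 encode the same H4 protein. For contrast, the same stretch in his-14 (chrII:13819643-13819717, minus strand) is letter for letter that of his-10 and his-26, and none of the 3 had an entry in any list.
his-14: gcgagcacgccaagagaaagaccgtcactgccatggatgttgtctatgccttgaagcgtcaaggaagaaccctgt

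The H3 sequences show the same stretch of the 5 H3 genes that had a pooled summit inside the gene. They run from offset 180 to offset 284, and the summits lie at offsets 189, 238, 199, 256 and 280. Capitals mark the 17 positions at which the 5 differ.
his-59: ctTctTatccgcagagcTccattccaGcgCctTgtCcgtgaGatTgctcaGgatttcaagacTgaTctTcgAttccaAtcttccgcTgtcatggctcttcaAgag
his-32: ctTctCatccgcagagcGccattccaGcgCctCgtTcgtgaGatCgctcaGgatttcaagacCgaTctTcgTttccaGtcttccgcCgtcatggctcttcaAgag
his-63: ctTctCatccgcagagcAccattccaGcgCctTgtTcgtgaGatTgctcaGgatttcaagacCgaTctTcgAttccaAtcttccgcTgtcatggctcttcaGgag
his-6: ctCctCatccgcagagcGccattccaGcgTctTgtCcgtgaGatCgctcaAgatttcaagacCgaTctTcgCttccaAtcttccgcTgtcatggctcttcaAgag
his-2: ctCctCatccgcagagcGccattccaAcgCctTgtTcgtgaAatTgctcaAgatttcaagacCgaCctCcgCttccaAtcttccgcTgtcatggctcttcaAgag
The positions are chrIV:7488429-7488533 and chrIV:8334485-8334589 on the plus strand, and chrIV:11406577-11406681, chrV:8534693-8534797 and chrV:16041999-16042103 on the minus strand. Relative to his-59 the others differ at 9, 5, 8 and 11 positions. No copy of TAATCC, on either strand, lay within 100 bp of the optimal summit in his-59 or his-32.

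The stretch between the starts is shown for 2 H3 with H4 pairs with optimal peaks and for the one H2A with H2B pair whose strongest pooled summit lies in it. Capitals mark the motifs searched on both strands, which were the Otx core TAATCC, the homeodomain core TAATTA, the TATA box TATAAA, the box CCAAT, the GC-rich CCGCCC and the repeat GAGAGA. All are written on the plus strand, so a motif on the minus strand appears as its reverse complement.
his-60/his-59: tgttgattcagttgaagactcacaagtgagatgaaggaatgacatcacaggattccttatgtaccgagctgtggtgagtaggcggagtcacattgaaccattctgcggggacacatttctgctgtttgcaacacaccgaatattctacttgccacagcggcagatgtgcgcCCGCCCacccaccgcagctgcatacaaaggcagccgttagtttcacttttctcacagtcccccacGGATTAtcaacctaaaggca
his-63/his-64: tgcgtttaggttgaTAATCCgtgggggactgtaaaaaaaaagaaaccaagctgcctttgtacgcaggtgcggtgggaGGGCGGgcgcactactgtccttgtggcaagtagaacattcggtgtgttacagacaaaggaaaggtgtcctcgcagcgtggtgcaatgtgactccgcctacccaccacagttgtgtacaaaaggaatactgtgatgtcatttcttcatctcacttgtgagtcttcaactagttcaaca
his-4/his-3: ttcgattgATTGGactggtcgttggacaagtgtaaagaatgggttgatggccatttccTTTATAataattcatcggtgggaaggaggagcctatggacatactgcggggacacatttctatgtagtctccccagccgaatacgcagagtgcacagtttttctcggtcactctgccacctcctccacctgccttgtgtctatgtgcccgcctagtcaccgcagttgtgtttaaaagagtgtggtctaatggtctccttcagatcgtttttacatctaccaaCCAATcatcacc
They are chrIV:7487993-7488248, chrIV:11406862-11407115 and chrV:16040516-16040807. The first and second each hold 1 TAATCC and 1 CCGCCC, and the third holds neither.

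The Otx-class core had a fixed place in these pairs. TAATCC was present in the stretch between the starts of 7 of 14 H3 with H4 pairs and of 0 of 16 H2A with H2B pairs. In all 7 it was on the strand opposite to the H3 gene, with its nearest base 15 bp upstream of that gene's first base. In each, that annotated base is the first base of the start codon, so the distance to the start of transcription is not known. These pairs include exact copies, so the 7 are not independent. An optimal summit was inside 2 of the 7 pairs that have the core and inside 2 of the 7 that lack it, and a pooled summit was inside 2 and 4 of them. Of the 7 pairs with the core, 5 have under 10% unique 36-bp words, and so do 3 of the 7 without it. In his-60 with his-59 the middle of the core lies 206.5 bp from the nearest pooled summit, and in his-63 with his-64 it lies 216.5 bp from it, so in neither is it within 100 bp of a summit.

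Among the 16 H2A with H2B pairs, 1 had an optimal summit. It lay 260 bp into the H2B gene his-62, in the peak chrIV:7486610-7486999, with signal 103.42 and rank 1145. Replicate 2 had its entry 26 bp away at rank 923 (signal 67.68), and the closest entry of replicate 1 was 127 bp away at rank 916 (signal 54.05), past the end of the gene. The window of the partner his-61, an H2A gene, takes in the same summit, as does that of his-59. With the 2 peaks in his-60 and his-59, this locus of 4 genes had 3 of the 9 peaks, and all 4 genes had an optimal summit in their window.

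The pair his-4 (H2B) and his-3 (H2A) came closest to the optimal threshold without passing it. Its pooled entry had its summit between the genes, 73 bp upstream of his-4 and 220 bp upstream of his-3, with signal 81.17 and rank 1943. The strongest entry of replicate 1 in this pair was elsewhere, 128 bp into his-4, at rank 2228 (signal 37.38), and its entry between the genes had rank 3723 (signal 31.15). The strongest entry of replicate 2 lay between the genes, at rank 1714 (signal 49.68). In all, 4 H2A with H2B pairs held 7 pooled summits, 2 of them between the starts, 4 in an H2A gene and 1 in an H2B gene. The pair his-35 and his-41, with 98.09% unique words, had 1 summit within it at rank 28614 (signal 25.99).

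The H3.3 genes stand outside pairs. The peak chrIII:4060805-4061194 lies 881 bp upstream of his-70, which RefSeq lists as H3.3-like, and it is the only one of the 9 with TAATCC within 100 bp of the summit. It had signal 92.38 and rank 1451 in the optimal list, rank 969 (signal 52.5, 89 bp away) in replicate 1 and rank 1708 (signal 49.73, 33 bp away) in replicate 2. It was thus among the 1662 strongest of replicate 1 and outside those of replicate 2. The 161 bases around the summit are shown for their 3 copies of the core, in capitals, 1 on the plus strand and 2 on the minus strand, at 55, 70 and 78 bp from the summit as counted from each copy's left end.
his-70: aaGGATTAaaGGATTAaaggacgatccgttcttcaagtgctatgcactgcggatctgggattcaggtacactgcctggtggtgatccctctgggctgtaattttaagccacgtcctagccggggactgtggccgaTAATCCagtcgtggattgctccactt
The stretch is chrIII:4060920-4061080, plus strand. Only 49.16% of the 36-bp words in the summit window are unique in the genome.

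At his-72, a gene for H3.3, the summit lay 5 bp into the first coding exon, in the peak chrIII:12368850-12369239, and the window of the proteasome subunit gene rpt-6 also takes it in. It had signal 94.0 and rank 1393, with rank 794 (signal 58.1, 83 bp away) in replicate 1 and rank 1615 (signal 51.14, 21 bp away) in replicate 2. This was the one histone peak with its summit at a start, and all of its words were unique. No optimal peak was near the other H3.3 genes. The strongest pooled entry was at rank 20963 for his-69 and 19174 for his-74, and his-71 had none, with a single entry at rank 24090 in replicate 2.

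The remaining optimal peak, chrI:9988779-9989168, is the only one whose summit lies between the starts of a divergent pair. It stands 211 bp upstream of the H4 gene his-67 and 158 bp upstream of the H2A gene his-68, the one pair that joins these types, with 368 bp between the starts. The window of the Argonaute gene alg-5 takes it in too. It had signal 160.55 and rank 535, with rank 885 (signal 54.83, 31 bp away) in replicate 1 and rank 394 (signal 107.32, 6 bp away) in replicate 2. All 36-bp words around its summit are unique, and it has no TAATCC within 100 bp.

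The 9 peaks were placed similarly by both replicates. The summit of the nearest entry was 0 to 127 bp away in replicate 1 (median 31.0) and 2 to 33 bp away in replicate 2 (median 6.0). Of the 9, 8 had that entry among the 1662 strongest of replicate 1, 7 among those of replicate 2 and 7 among both. With the entry also within 100 bp in both replicates, 6 of the 9 (66.7%) remained. Among the other 635 nuclear optimal peaks in start windows 404 (63.6%) did, so this agreement does not set the histone peaks apart. The 2 genes whose optimal peak was in neither set are his-1 and his-2, and his-70 was in that of replicate 1 alone. The H2B gene his-15 had an entry among the strongest of replicate 1 (rank 1478, 1100 bp upstream). The strongest entries in its window were elsewhere in the other lists, 980 bp upstream at rank 4833 in the pooled list and 696 bp upstream at rank 3482 in replicate 2. Median rank of the 9 was 704 in the optimal list, 885 in replicate 1 and 977 in replicate 2. The lists are of unequal length, so these ranks do not measure a change between them.

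**Figure D3:**
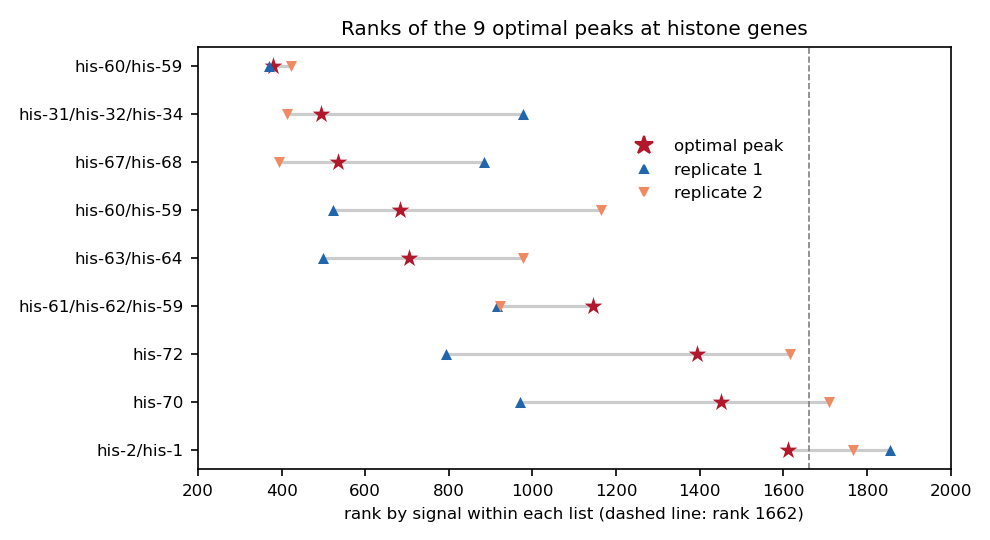
Rank by signal (x axis, 1 is strongest) of the 9 optimal peaks at histone genes in the optimal list (red stars) and of the nearest entry in replicate 1 and replicate 2 (triangles), with the histone genes whose window holds the summit on the y axis. The 2 lowest rows, his-70 and his-2 with his-1, are the ones with a triangle beyond rank 1662.

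As a set, the histone peaks differed in place from other peaks near gene starts. The summit was in a coding exon in 7 of 9 (77.8%), against 28 of 635 other nuclear optimal peaks in start windows (4.41%), and 24 of 366 (6.56%) once windows with telomere repeats or near small RNA genes are set aside. Coding bases make up 33.2% of the start windows of histone genes and 25.3% of those of all protein-coding genes, and the part of this difference in the place of the summits was not tested. Median GC content within 100 bp of the summit was 50.2%, against 45.3% at the other 635. The core TAATCC was within 100 bp of 1 of 9 summits (11.1%), against 33.4% of the other 635, and 0 of 9 carried telomere repeats, against 26.8%. Median signal was 136, against 122. The peaks share sequence and were chosen by gene, so these shares are given as a description without a test.

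The upstream sequence of histone genes was also compared with that of all genes, on 250 bp before each start and both strands. The core TAATCC was present at 12 of 72 histone genes (16.7%), against 7.95% of 19973 genes, and at 5 of the 15 with an optimal peak. TAATTA, a core of other homeodomain classes, was at 1 of 72 (1.39%), against 14.5%. TATAAA, the TATA box, was at 47 (65.3%), against 35.2%, CCAAT at 37 (51.4%), against 38.9%, CCGCCC at 20 (27.8%), against 6.94%, and GAGAGA at 33 (45.8%), against 19.1%. Copies of 1 promoter are counted each time. Paired starts are 227 to 368 bp apart, so 1 site can also count for both genes of a pair. The single TAATCC counts for both genes in his-60 with his-59, his-63 with his-64, his-46 with his-45 and his-55 with his-56. A match in this window is not evidence of a bound site.

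No optimal peak was near the genes of the other 12 loci. The largest, chrII:13817760-13828697, holds 13 genes in 10.9 kb, and pooled entries were only at its ends, in the windows of his-16 (rank 7226), his-15 (rank 4833) and his-42 (rank 6268). The locus chrV:8847393-8854053, with 6 genes, had no entry in any of the 4 lists. The neighbouring chrV:8889488-8898539, with 8 genes, had 1 pooled entry, at his-18. Of the 5 genes at chrV:8532715-8536716, 4 shared 4 pooled entries and his-7 had none, with the best rank of 5696 (signal 53.98), just past the end of the H4 gene his-5. The loci chrIV:11324056-11326998 and chrIV:11337853-11341703 had pooled ranks no better than 14825 (his-46) and 11575 (his-58). At the H1 gene his-24 the pooled entry stood 470 bp into the gene at rank 3875 (signal 62.11), with rank 2076 in replicate 1 and 5220 in replicate 2. The partial histone genes had best pooled ranks of 5696 (his-39) and 18889 (his-73), and his-35, his-41 and his-37 had a best rank of 5086. The pair his-38 and his-40 had no pooled entry and reached rank 29396 in replicate 1 and rank 13627 in replicate 2.

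**Figure D4:**
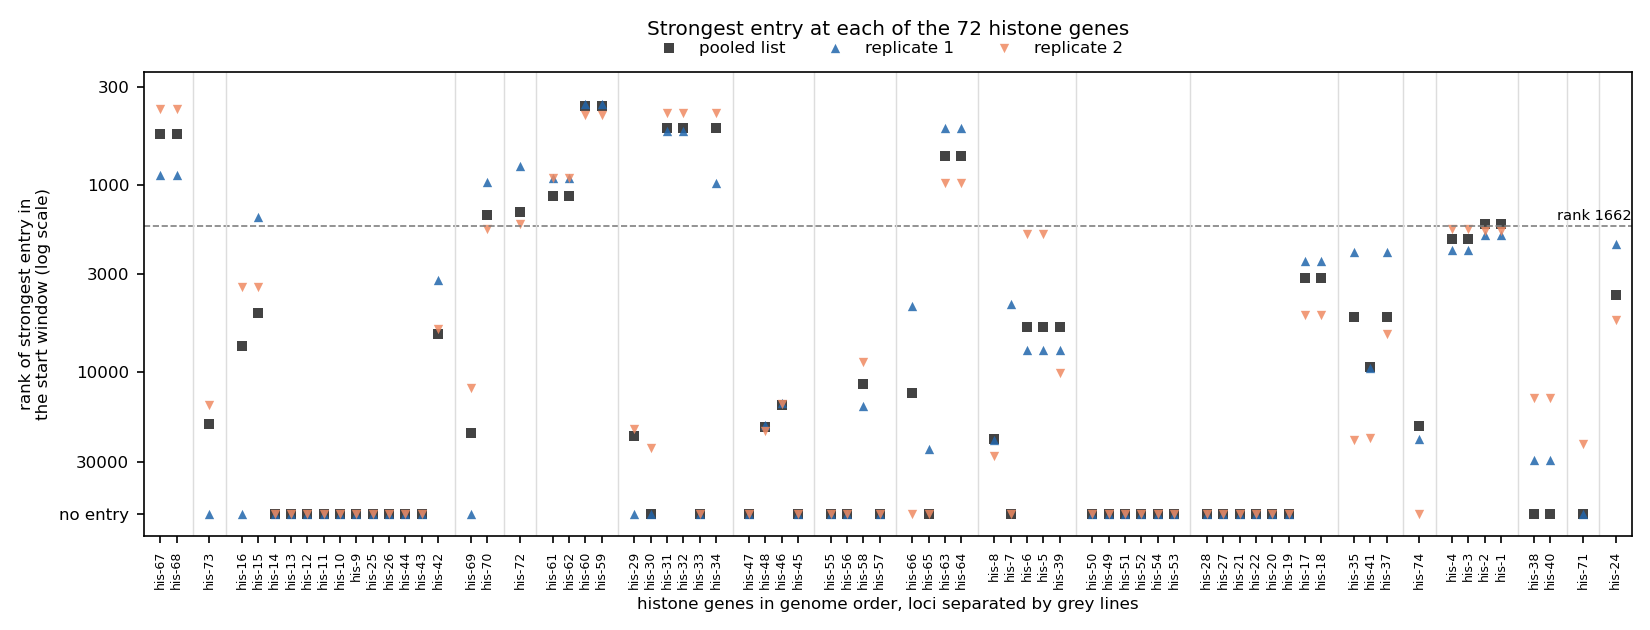
Rank of the strongest entry in the start window (y axis, log scale, strongest at the top) for each of the 72 histone genes in genome order, in the pooled list (squares) and replicates 1 and 2 (triangles), with grey lines between loci and a dashed line at rank 1662. Genes at the bottom have no entry in that list, and 28 have none in any list.

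The genes without entries are largely those whose sequence is repeated. Of the 28 histone genes with no entry in any list, 27 have a coding sequence that is identical to that of another member. Of the 36 genes with such an identical copy, 7 had a pooled entry and 1, his-34, an optimal peak. Of the 36 without one, 31 had a pooled entry and 14 an optimal peak. Over the start window, the median share of 36-bp words found once in the genome was 74.2% in the 38 histone genes with a pooled entry, against 1.83% in the 34 without. With 50-bp words the medians were 80.2% and 2.56%. Over all protein-coding genes both medians were 100% at either word length.

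In each of the broad bands of uniqueness below, a larger share of histone genes than of all genes had entries. Genes within a band were not matched for uniqueness, and histone genes that share a peak are each counted. Of the 12 histone genes with at least 90% unique words, 11 (91.7%) had a pooled entry and 5 (41.7%) an optimal peak, against 46.9% and 4.42% of 17076 genes. Of the 19 with 50 to 90%, 16 (84.2%) and 8 (42.1%) did, against 37.1% and 3.21% of 2337 genes. Of the 41 under 50%, 11 (26.8%) and 2 (4.88%) did, against 9.09% and 0.874% of 572 genes. By pair, an optimal summit was inside 5 of the 8 pairs with at least 50% unique words, 1 of the 4 with 10 to 50% and 0 of the 19 under 10%, and a pooled summit inside 7, 3 and 1 of them. The 4 genes with at least 50% unique words and no pooled entry were his-71 (100%), his-38 and his-40 (83.98% each) and the H2A gene his-7 (62.97%). Read length and the treatment of reads that match several places are unknown from the sources used here. The part of repeated sequence in the missing entries was not tested, and a histone gene without an entry is not shown to lack CEH-36.

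**Figure D5:**
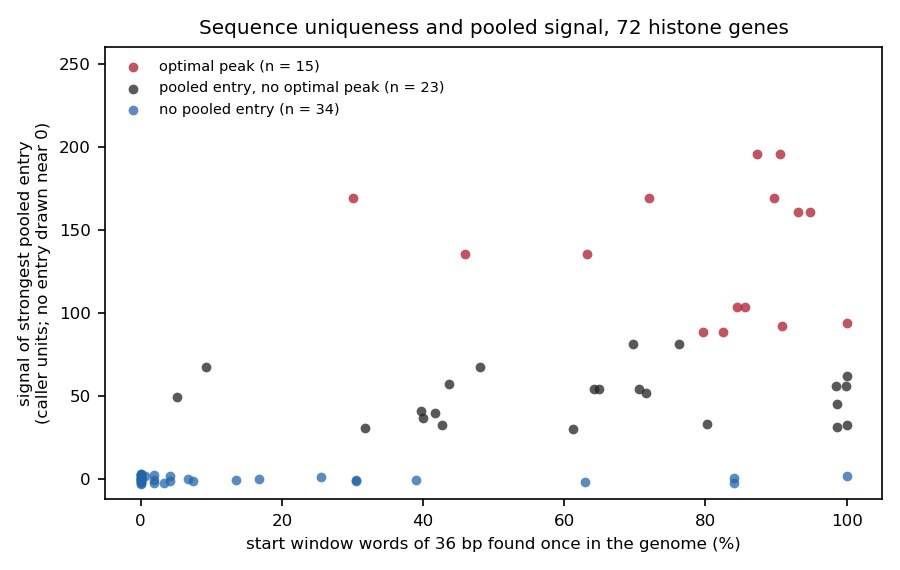
Signal of the strongest pooled entry (y axis, the authors' caller units) against the percentage of 36-bp words in the start window that occur once in the genome (x axis) for the 72 histone genes, in red with an optimal peak (n = 15), in black with a pooled entry only (n = 23) and in blue with no pooled entry (n = 34, spread slightly around 0). Most blue points lie at the left, and 3 of them lie above 80%.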

How the data were processed

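The authors deposited 4 peak lists on ce11 that were used here: 1 per replicate (30000 entries each), 1 from the pooled replicates and the optimal list of the irreproducible discovery rate procedure, made from replicate and control alignments per the file descriptions deposited with the samples. The signal used for ranking is the authors' own value in column 7. The deposited column 9 is −log10 of a q-value (q was 0.00344 to 0.00539 at the 9 histone peaks), and the deposited column 10 places the summit. Aligner, caller, read length and depth: not given in the sources used here. Lists on ce10 were not used here.

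Summits were set against Ensembl release 115 (WBcel235), with names, products and sequence from RefSeq by identifier (72 of 72 matched, 22 with a name other than in Ensembl). Python 3.11.15, pandas 2.3.3 and numpy 2.4.6 were used, and scripts were checked on simulated data. A pair is 2 neighbouring divergent members up to 1000 bp apart. A word counted as unique when it occurred once over both strands of the genome. Telomere repeats mean 3 or more units within 195 bp of the summit, and small RNA genes mean a tRNA within 500 bp or a snoRNA within 200 bp. Counts stand beside all protein-coding genes, with no test, since there was 1 group with 2 replicates. The members, motifs and lists were chosen with earlier results of these data known. Named are every histone gene with an optimal peak, the genes nearest the strongest pooled entry of each other locus, genes that share a histone peak, and further members chosen after their values were seen. Alternatives varied the window, the threshold, the replicates, the start and the locus distance.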

Additional observations from a re-analysis of the deposited data

How the results depend on the processing

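The counts recomputed under 28 alternatives were 15 genes with an optimal peak, 9 peaks and 7 loci. In 24 the histone counts stayed within 1.5 times, whatever the change in the share of all genes. The 4 others were 9 genes with a window of 500 bp on either side (2.44% of all genes), and 9 genes, 5 peaks and 4 loci with only the stronger 831 optimal peaks (2.12% of all genes). Some of the 24 could hardly move. The start codon is already the gene start in 65 of the 72 genes, and joining at 5 or 30 kb gives 19 or 18 loci, against 19. A peak given only to its nearest start left 10 of the 72 genes, against 1382 of all 19985 (6.92%). A window of 3000 bp upstream gave 17 of the 72, against 6.1% of all genes. By the main rule the share of all genes was 4.18%, so under both alternatives the histone genes stood less apart. Leaving out 1 replicate gave 12 to 14 genes, 7 to 11 peaks and 5 to 7 loci. Requiring an entry within 100 bp among the strongest of both replicates left 10 genes, 6 peaks and 5 loci. The share of all genes was not computed for that setting. By peak, the nearest entries met it at 66.7% of the histone peaks and 63.6% of the other 635 gene start peaks. One gene per Ensembl symbol, an alternative chosen after seeing the data, gave 15. No paired analysis was possible because there is only 1 group. Peak lists without read counts limit the precision, which is therefore unknown, and whether repeated sequence limits which members could be seen was not tested.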

Other observations

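Histone-related genes that the symbol rule leaves out were looked up after the values above were seen. The H1-like gene hil-3 had an optimal peak 449 bp into the gene, at signal 132.91 and rank 729, and the strongest entries in its window had rank 661 in replicate 1 and rank 835 in replicate 2, the second at 197 bp. The H2A variant gene htz-1 had a pooled entry 363 bp into the gene at rank 1765 (signal 84.64), with rank 1569 at 362 bp in replicate 1, and the strongest entry of replicate 2 was upstream of the gene, at rank 2135. The centromeric H3 genes hcp-3 and cpar-1 had pooled ranks of 3568 and 12976. The gene cdl-1, which encodes the protein that binds the stem-loop of histone messages, had rank 4307. The H1-like gene hil-1 had no entry in any list, and hil-2 had one in replicate 2 alone, at rank 1491. The H1-like genes hil-4 to hil-8 had best pooled ranks from 9648 (hil-5) to 19634 (hil-8). Of all the genes looked up, only hil-3 had an optimal peak. Over all protein-coding genes, 4.18% had an optimal peak and 44.7% a pooled entry.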
